A study of Danio rerio with 5 samples.

Results

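The genes described here are a list of 44 cell cycle genes, 21 that act in DNA replication and 23 that act in mitosis. They were chosen for their known roles, with earlier results of these data known. A gene counted as present where its symbol stood in the gene table of the deposited matrices. Of the 44, 40 were found among 15413 gene symbols, namely 20 replication genes and 20 mitosis genes. The replication gene cdt1 and the mitosis genes bub1, incenp and cenpf were not analysed here.

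Genes of both kinds rise and fall with each division. Before S phase, the origin complex and Cdc6 load the ring of MCM proteins onto DNA, and Cdc45 and the GINS complex turn that ring into a running helicase. Replication protein A then covers the single strands, PCNA holds the polymerase as a sliding clamp, and ribonucleotide reductase supplies deoxynucleotides. Mitosis genes peak later, when Cdk1 with its cyclins, the Polo and Aurora kinases, the kinetochore, the spindle assembly checkpoint and the anaphase-promoting complex carry the chromosomes through division. In the growing zebrafish eye, dividing retinal progenitors are in time confined to the ciliary margin, and basal cells renew the epithelium of the cornea.

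The cells came from Tg[foxc1b:GFP] embryos, with AB as the labelled genotype, in which foxc1b regulatory sequence drives GFP in the mesenchyme around the eye. Eyes of about 100 embryos per collection, kept in medium with PTU, were dissected at 48, 72, 96, 120 and 144 hours post fertilisation (hpf), dissociated with trypsin and sorted for GFP. The design is a time course without a mutant or a treatment. Unique molecular identifiers (UMIs, each standing for 1 captured transcript) were counted in 12234 cells of 10 libraries, called A and B at each time point. GFP is a limit of this model, since whole eyes were dissociated and the sorted cells held many types with little transcript of the driver gene. Foxc1b itself reached 183 to 510 CPM (counts scaled to a fixed total of UMIs per sum of cells) in mesenchymal-like sums of cells, 31.1 to 75.8 CPM in AL2-like sums, at most 51.6 CPM in CEp1-like, 20.1 CPM in CEp2-like and 16.7 CPM in retinal progenitor-like sums, and at most 1.95 CPM in retinal neuron-like sums.

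Libraries of 1 time point were not alike. They held between 102 and 2759 cells, with median depths between 760 and 3709 UMIs per cell, and A and B differed far beyond counting noise at every time point. Library 144 hpf B held only 102 cells, and 61 of their barcodes (59.8%) were also found in 48 hpf B. Libraries 48 hpf A and 72 hpf A carry chemistry V2 in the table of cells and the other 8 carry V3. A library code was shared by 72 hpf B with 96 hpf A, by 96 hpf B with 120 hpf A, and by 120 hpf B with 144 hpf A. The study describes A and B as independent biological replicates of pooled embryos, and the p-values of the trends below measure the spread between these libraries. Where the library was a block, they measure how a difference within a library varied from library to library.

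Cells were grouped at each time point by Leiden clustering, and clusters were named by marker genes. The 40 genes and a wider list of cell cycle genes had been held out of the clustering. The histone genes hist2h3c, hist1h2a2 and h2afx were not on these lists. They were among the 10 leading genes of retinal progenitor-like clusters at 48 or 144 hpf. Their part in the grouping and in the comparisons between groups was not tested. Retinal progenitor-like clusters carried genes such as rx1 and hes2.2, and retinal neuron-like clusters carried markers of ganglion, amacrine or horizontal, bipolar or photoreceptor cells. CEp1-like clusters, of epithelium with markers of the basal layer, carried krt5, krt91, tp63 and cldni. Whether this epithelium is of the cornea or of nearby skin was not tested, and the CEp1-like cluster of 144 hpf also met 11 CEp2 markers. CEp2-like clusters, of superficial epithelium, carried icn2, agr1, cyt1 and krt4. AL2-like clusters, of the annular ligament in the drainage angle of the eye, carried scinla, hgd, hpdb and pitx3. The mesenchymal-like class joined clusters with markers of periocular mesenchyme, corneal stroma, corneal endothelium or cartilage, and different clusters made it up at different time points. The study's AL1 class of the annular ligament was marked by hmgn2, hmgb2b and the members mcm7 and pcna. It also reported mcm7, nusap1 and rrm2 transcripts in the annular ligament by in situ hybridisation. No class was named AL1 here, and which of these cells correspond to it was not tested.

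Across all cells, pcna, the sliding clamp, was the most abundant member with 43070 UMIs in 4878 cells. It was followed by rrm2, the small subunit of ribonucleotide reductase, with 25755 UMIs, mcm7, a subunit of the helicase ring, with 18244, and dut, which removes dUTP, with 17902. Of the mitosis genes, nusap1, a spindle protein, had 8578 UMIs and mki67, the Ki-67 antigen of cycling cells, had 8473. The histone mRNA binding gene slbp was nearly absent, with 164 UMIs in 148 cells. UMI levels of different genes are not corrected for how well each transcript is captured, so the order of the genes is one of counts.

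The levels of both sets differed between cell groups and, within some groups, between time points. Summed over the 20 replication genes, retinal progenitor-like cells had between 6019 and 10974 CPM in their 9 libraries, with a median of 7469 CPM. Summed over the 20 mitosis genes, they had between 2017 and 4689 CPM. Retinal neuron-like cells of 5 libraries had 372 to 2859 CPM of replication genes and 143 to 633 CPM of mitosis genes. The median of these mitosis sums, 334.7 CPM, moved to 1206 CPM at clustering resolution 0.5 and to 1352 CPM with cells grouped by the markers they carried. CEp1-like cells stood at 229 to 1763 CPM of replication genes and 60.9 to 770 CPM of mitosis genes over 10 libraries. In such sums, fewer cycling cells and less of these transcripts in each cell cannot be told apart.

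**Figure D1:**
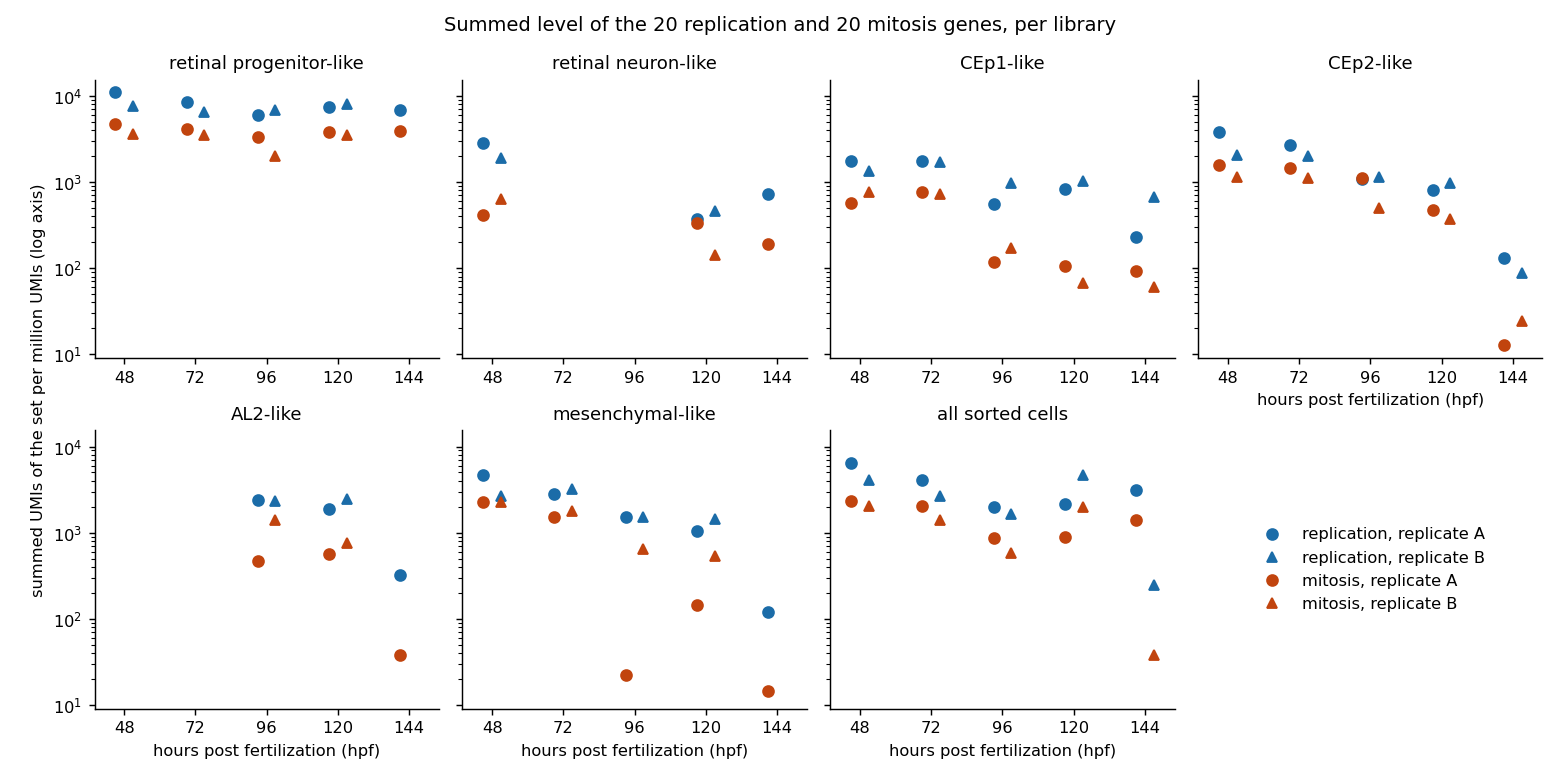
Summed level of the 20 replication genes and of the 20 mitosis genes, in CPM on a log axis, in each library (points) by time in hpf, with 1 panel per cell group and 1 for all sorted cells (circles, library A; triangles, library B). Retinal progenitor-like cells have 6019 to 10974 CPM of replication genes. CEp1-like cells have 60.9 to 172 CPM of mitosis genes at 96 to 144 hpf and 578 to 770 CPM at 48 and 72 hpf. Cells of unnamed clusters are in neither group.

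A few members carried most of the replication sum. In retinal progenitor-like cells pcna gave 21.8% of 122435 replication UMIs, rrm2 15.6%, dut 9.84% and mcm7 9.12%. The mitosis sum of the same cells was spread more evenly, with 11.2% of 58404 UMIs from nusap1, 9.89% from mki67, 8.89% from cdk1 and 8.03% from ube2c, the ubiquitin-conjugating enzyme of the anaphase-promoting complex. In CEp1-like cells, with the UMIs of all libraries pooled, the MCM genes stood higher in the order, with mcm7, mcm2 and mcm6 next after pcna. This order differed with time. Median rrm2 was 204 CPM at 48 and 72 hpf, beside 103 CPM for mcm7, and 19.3 CPM beside 72.2 CPM later. In the pooled CEp1-like cells bub3, a checkpoint protein, led the mitosis sum with 11.9% of 3729 UMIs. Its median was 47.0 CPM at 48 and 72 hpf, beside 89.2 CPM for ube2c, and 20.9 CPM beside 4.15 CPM later.

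The sets were then counted in single cells. To remove differences in depth, every cell with at least 500 UMIs was thinned at random to 500. A cell was counted when it kept at least 1 UMI of each set. Cells under 500 UMIs were left out, so that 12123 of 12234 cells entered, and 144 hpf B lost 28 of 102. Of 3245 retinal progenitor-like cells, 47.9% held UMIs of both sets (exact 95% interval 46.2 to 49.6%), with 34.5 to 64.4% in single libraries. Retinal neuron-like cells are the group that should hold the fewest dividing cells, and 1.48% of 1484 held both (0.931 to 2.24%). The share was 3.44% of 1539 CEp1-like cells (2.59 to 4.48%), 8.79% of 1115 CEp2-like cells (7.19 to 10.6%), 5.76% of 1145 AL2-like cells (4.49 to 7.28%) and 7.0% of 1887 mesenchymal-like cells (5.89 to 8.24%). The last 2 pools differ in time, since AL2-like cells came from 96 hpf on only. Mesenchymal-like cells had 8.46 to 17.7% at 48 and 72 hpf. From 96 hpf A to 144 hpf A they had 0 to 3.36%, beside 0.645 to 14.1% in AL2-like cells. Mueller glia-like cells had 11.3% of 594. Their share was 74.2% in 96 hpf A and 13.8% in 96 hpf B, which shared a cluster, and 1.18 and 0.588% in 120 hpf A and B. The Mueller glia-like clusters of 96 and of 120 hpf each also carried 11 retinal progenitor markers. Cells of unnamed clusters had 36.97% of 1044. In 120 hpf B the 99 unnamed cells came from a cluster with 3 of 16 photoreceptor markers, which was not in the retinal neuron-like class. Both sets were in 70.7% of them, beside 44.4% of retinal progenitor-like and 1.45% of retinal neuron-like cells there. In 144 hpf A the 243 unnamed cells came from a cluster with 6 of 21 retinal progenitor markers. Both sets were in 22.2% of them, beside 44.2% of retinal progenitor-like cells there. In 48 hpf B, 343 of 372 unnamed cells came from a cluster with 4 of 11 CEp1 markers. Both sets were in 48.7% of the 372, beside 8.11% of CEp1-like cells there. The intervals given cover counting error only, and the spread between libraries was wider. Unthinned, the shares were 77.5% of retinal progenitor-like cells (median depth 3502 UMIs), 30.7% of CEp1-like cells (5173.5 UMIs), 29.4% of CEp2-like cells (2789.5 UMIs), 17.7% of AL2-like cells, 19.0% of mesenchymal-like cells and 9.94% of retinal neuron-like cells (1868 UMIs). Replication UMIs without mitosis UMIs were the more common single state, in 34.2% of retinal progenitor-like, 22.9% of CEp1-like, 25.6% of AL2-like and 13.3% of retinal neuron-like cells after thinning. In the unthinned cells, retinal progenitor-like cells had a median of 8 replication genes and 4 mitosis genes detected, and the other named groups had medians of 0 or 1 of either set.

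**Figure D2:**
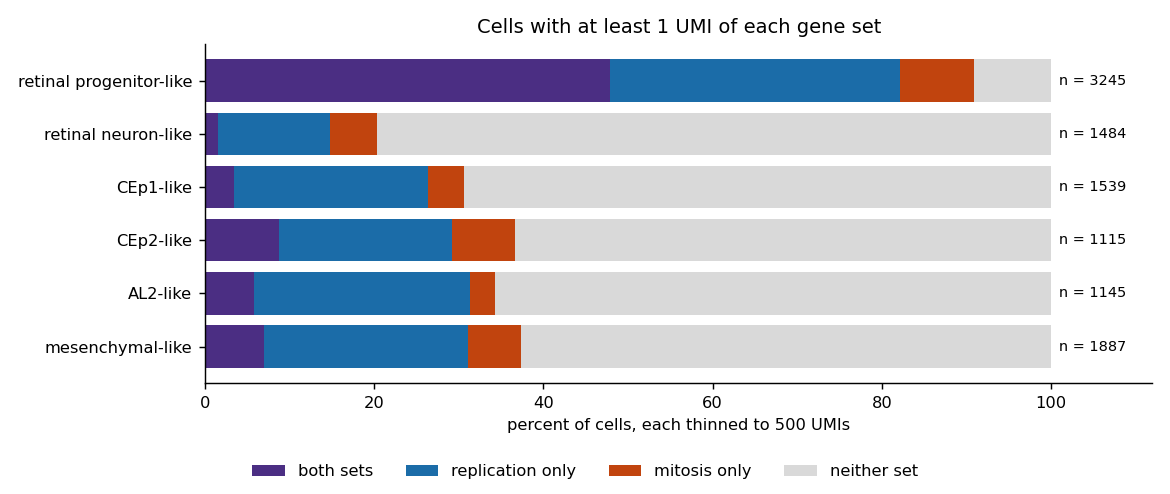
Stacked bars of the percent of cells in each cell group (rows, all libraries pooled, with the number of cells at the right) that held UMIs of both sets, of replication genes only, of mitosis genes only or of neither set, after thinning each cell to 500 UMIs. Both sets were found in 47.9% of retinal progenitor-like cells and in 1.48 to 8.79% of the other groups drawn, and neither set in 9.12% of retinal progenitor-like cells and 79.7% of retinal neuron-like cells.

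Retinal progenitor-like cells were set against retinal neuron-like cells to ask how far the sets separate dividing precursors from the neurons they give rise to. All 40 genes were higher in retinal progenitor-like cells, by edgeR's quasi-likelihood test with Benjamini-Hochberg adjustment over 6740 genes, the library as a block and 5 libraries that held both groups. Of all genes tested, 27.4% were called higher and 22.6% lower. The unnamed cluster with photoreceptor markers at 120 hpf was not in the retinal neuron-like class. Its part in the comparison was not tested. The median log2 fold change was 3.41 over the replication genes and 5.18 over the mitosis genes, beside 0.13 over all genes tested. With library totals in place of TMM factors these medians were 2.93 and 4.72, beside a median of -0.35 over all genes, and the 40 genes were still called higher.

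Cdk1, the kinase that starts mitosis, had 530, 350, 235, 305 and 362 CPM in retinal progenitor-like cells of 48 hpf A, 48 hpf B, 120 hpf A, 120 hpf B and 144 hpf A. In retinal neuron-like cells of the same libraries it had 32.2, 22.6, 18.6, 5.26 and 2.60 CPM. The ranges lie well apart, and the log2 fold change was 6.23 ± 0.43 (SE, adjusted p = 8.5e-11). Aurora kinase B, aurkb, of the chromosome passenger complex, differed by 6.17 ± 0.46 on the log2 scale (adjusted p = 3.4e-10). Its partner kinase of the spindle poles, aurka, had 827 UMIs in retinal progenitor-like cells and none in the retinal neuron-like cells of any of the 5 libraries, which makes it at least 64.6-fold higher when 3 UMIs are set over the neuron-like group.

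The smallest differences were those of bub3 (log2 fold change 2.23 ± 0.29), slbp (2.59 ± 0.72) and rpa2, a subunit of replication protein A (3.00 ± 0.31). Bub3 remained at 44.9 to 111.6 CPM in retinal neuron-like cells, against 129 to 266 CPM in retinal progenitor-like cells of the 5 libraries. Pcna averaged 1878 ± 622 CPM in retinal progenitor-like cells and 270 ± 350 CPM in retinal neuron-like cells (SD, n = 5 libraries each). Its neuron-like values were 870 and 271 CPM at 48 hpf and 0, 80.2 and 129 CPM at 120 and 144 hpf. Rrm2 was likewise at 570 and 520 CPM in neuron-like cells at 48 hpf, where these are ganglion cell-like, and at 18.2 to 28.3 CPM later. For 16 of the 20 replication genes and 19 of the 20 mitosis genes, every retinal progenitor-like library was above every retinal neuron-like library, as it was for 8% of all genes tested. Within a library the summed fold was 3.84 to 20.1 for replication and 5.63 to 24.6 for mitosis genes. When cells were grouped by the markers they carried, without clusters, the median log2 fold change of the mitosis genes was 1.59 and that of the replication genes 3.33.

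**Figure D3:**
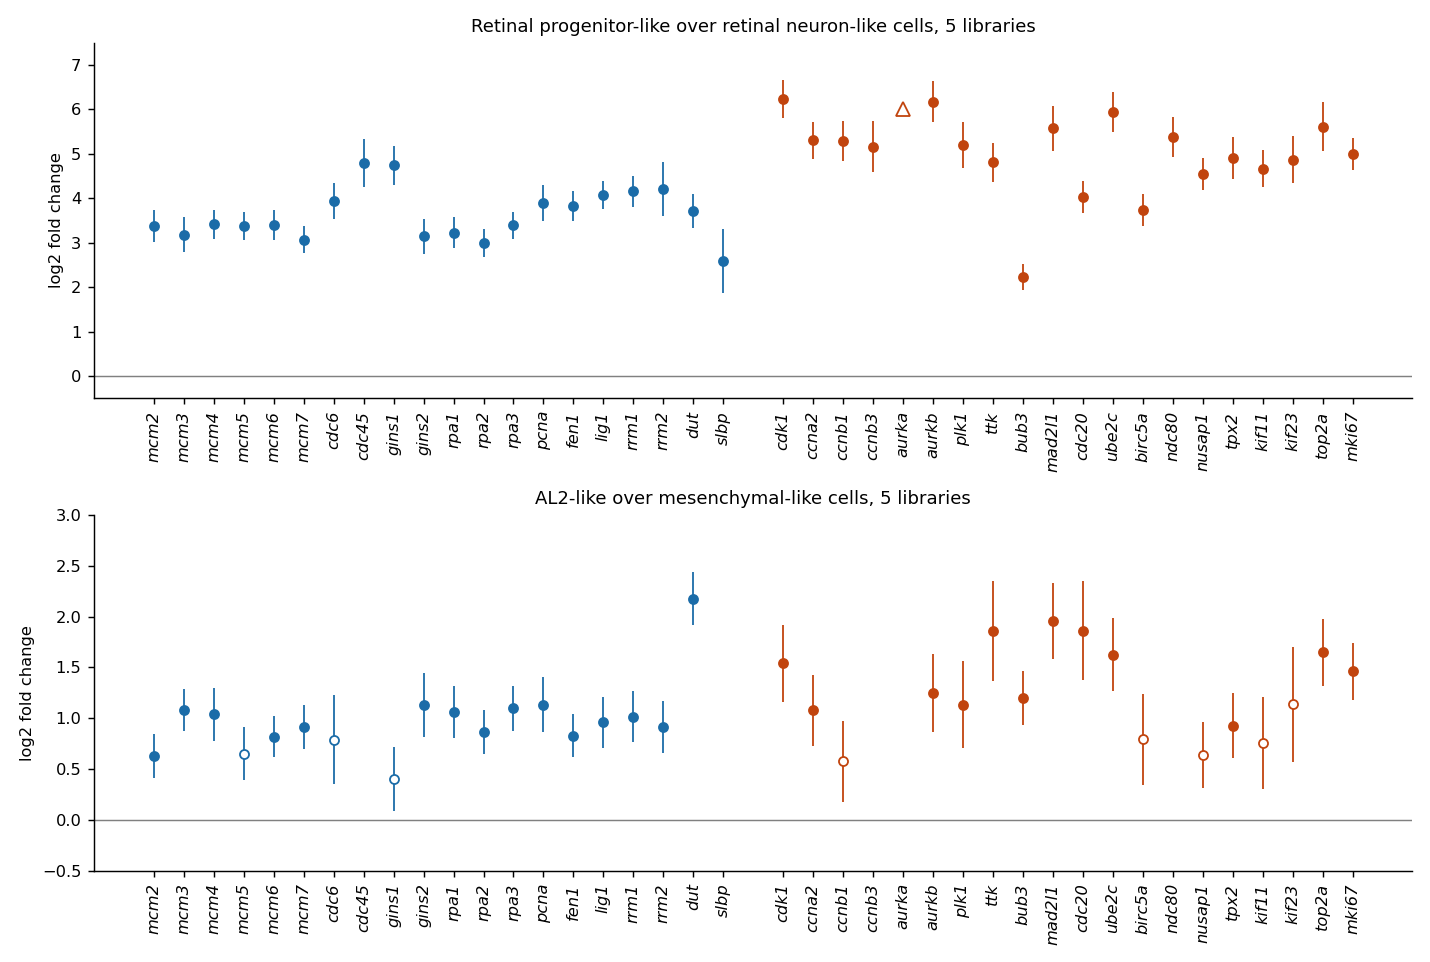
Log2 fold change of each member (points, with the standard error) in retinal progenitor-like over retinal neuron-like cells (top) and in AL2-like over mesenchymal-like cells (bottom), replication genes at the left and mitosis genes at the right. Filled points passed an adjusted p of 0.05, open circles did not, the open triangle is the lower bound for aurka, which had 0 UMIs in retinal neuron-like cells, and members removed by the filter have no point. The smallest value is that of bub3 at the top (2.23) and of gins1 at the bottom (0.40).

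The groups above were followed over time with a straight line in hpf, and slopes are given as log2 change per 24 h. The unnamed clusters with CEp1 markers at 48 hpf and retinal progenitor markers at 144 hpf were not in these groups. In retinal progenitor-like cells (9 libraries, 5592 genes) 0 of the 40 genes passed the edgeR test, and 0.0358% of all genes did. At an unadjusted p under 0.05 there were 0 replication and 2 mitosis genes, and DESeq2 also called 0 members. The median slope was -0.01 for both sets. Slopes ran between -0.20 and 0.20 over the replication genes and between -0.32 and 0.32 over the mitosis genes, with plk1, the Polo-like kinase, at the low end (-0.32 ± 0.13) and mki67 at the high end (0.32 ± 0.15).

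Level by level, mcm7 had a lowest value of 594, a median of 633 and a highest value of 888 CPM over the 9 libraries of retinal progenitor-like cells. Pcna lay between 1185 and 2962 CPM with a median of 1547, and rrm2 between 625 and 2378 CPM with a median of 1016. Top2a, the topoisomerase that untangles chromosomes, lay between 198 and 690 CPM with a median of 263, and cdk1 between 98.9 and 530 CPM with a median of 326. Mki67 varied most among these 6, between 186 and 1041 CPM. Library 96 hpf B was the lowest for cdk1, nusap1, ube2c, birc5a and aurkb and among the higher ones for mcm2 to mcm6. Its mitosis sum of 2017 CPM was the lowest and its ratio of replication to mitosis UMIs of 3.43 the highest, against ratios of 1.74 to 2.34 in the other 8 libraries.

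In CEp1-like cells, of the basal epithelium, many members had lower levels at later time points. Of 15 mitosis genes that passed the filter on low counts, 15 were called lower with time, and of 18 replication genes 9 were, where 15.1% of all 4625 genes were called lower and 11.4% higher (edgeR, 10 libraries). No member was called higher by edgeR or DESeq2. Members that the filter removed were cdc45, slbp, ccnb3, aurka, ttk, ndc80 and kif23, and without a filter 18 of 20 mitosis and 8 of 20 replication genes were called lower. The median slope was -0.86 over the mitosis and -0.36 over the replication genes tested, beside -0.03 over all genes. DESeq2 called 15 and 9. With the shared library code as a block the order of the medians was the reverse, -0.69 over the mitosis and -1.07 over the replication genes, and 0 members were called by edgeR (3 mitosis and 9 replication genes at an unadjusted p under 0.05). In that fit the slope rests only on the pairs of libraries that share a code, which hold no 48 hpf library. It is not the same trend, and so few libraries leave little room for any call, so no conclusion is drawn from it. No test compared the sets with each other.

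The genes of mitotic entry and exit had the steepest slopes. Cyclin B1, ccnb1, fell by 1.58 ± 0.26 on the log2 scale per 24 h (adjusted p = 7.2e-04, edgeR). In CEp1-like cells it had 12.5, 28.0, 14.9 and 32.6 CPM in the 48 and 72 hpf libraries, and 4.05 CPM or less in the 6 later ones, 2 of which were at 0. Plk1 fell by 1.40 ± 0.22 (adjusted p = 4.7e-04), and cdc20, the activator of the anaphase-promoting complex, by 1.40 ± 0.19 (adjusted p = 2.2e-04). Ube2c fell by 1.12 ± 0.24 (adjusted p = 0.0044), with 55.3 to 104 CPM at 48 and 72 hpf and 0 to 10.1 CPM later. For each of these 4 genes, the ranges of the early and the later libraries were apart.

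Markers of the cycling state moved in the same direction. Top2a had 43.0, 75.1, 40.9 and 93.7 CPM in the libraries of 48 and 72 hpf and 7.08, 16.6, 17.6, 2.93, 6.11 and 6.09 CPM in those of 96 to 144 hpf (A before B), with a slope of -0.87 ± 0.18. Cdk1 had 25.1, 53.0, 70.7 and 38.5 CPM and then 4.05, 4.87, 3.25, 1.95, 8.26 and 6.09 CPM, with a slope of -0.86 ± 0.23. Mki67 had 19.7, 66.2, 22.3 and 103 CPM and then 9.11, 30.5, 16.7, 5.86, 3.59 and 6.09 CPM (slope -0.81 ± 0.21), so that its early and later ranges overlapped. Bub3, again, differed least of the mitosis genes, with a slope of -0.34 ± 0.09.

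The replication genes are given by role, with no test between roles. The 6 MCM subunits had slopes between -0.27 and -0.10, and 0 of 6 were called by edgeR or passed at an unadjusted p under 0.05. Mcm7 had 94.9, 100.1, 105, 135, 55.7, 77.5, 79.8, 95.7, 29.1 and 67.0 CPM in the libraries ordered by time, and mcm6 73.4, 57.4, 68.2, 87.8, 44.5, 83.6, 71.4, 95.3, 17.6 and 36.6 CPM. Both were lowest in 144 hpf A, and the values of 48 and 72 hpf overlapped those of later libraries. The genes of nucleotide supply had steeper slopes than the MCM subunits: rrm2 (slope -0.99 ± 0.19, adjusted p = 0.0025), dut (-0.79 ± 0.19) and rrm1, the large subunit of the reductase (-0.58 ± 0.12), were each called, 3 of 3 tested in that role. Rrm2 had 209, 119, 273 and 199 CPM at 48 and 72 hpf and 6.07, 46.9, 25.5, 22.0, 16.5 and 6.09 CPM later. Called as well were cdc6, the MCM loader (-0.62 ± 0.15), and gins1 of the helicase (-0.49 ± 0.17), rpa3 (-0.46 ± 0.14) and rpa2 (-0.36 ± 0.13) of the single-strand binding complex, and lig1, the ligase of Okazaki fragments (-0.57 ± 0.13), and pcna (-0.35 ± 0.12, adjusted p = 0.038). Pcna had 458, 281, 425 and 302 CPM at 48 and 72 hpf and 123, 199, 151, 207, 50.3 and 226 CPM later. Gins2, fen1, which trims flaps, and rpa1 were not called, with slopes of -0.42 ± 0.21, -0.36 ± 0.16 and -0.26 ± 0.12, of which the first is steeper than that of pcna, which was called.

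**Figure D4:**
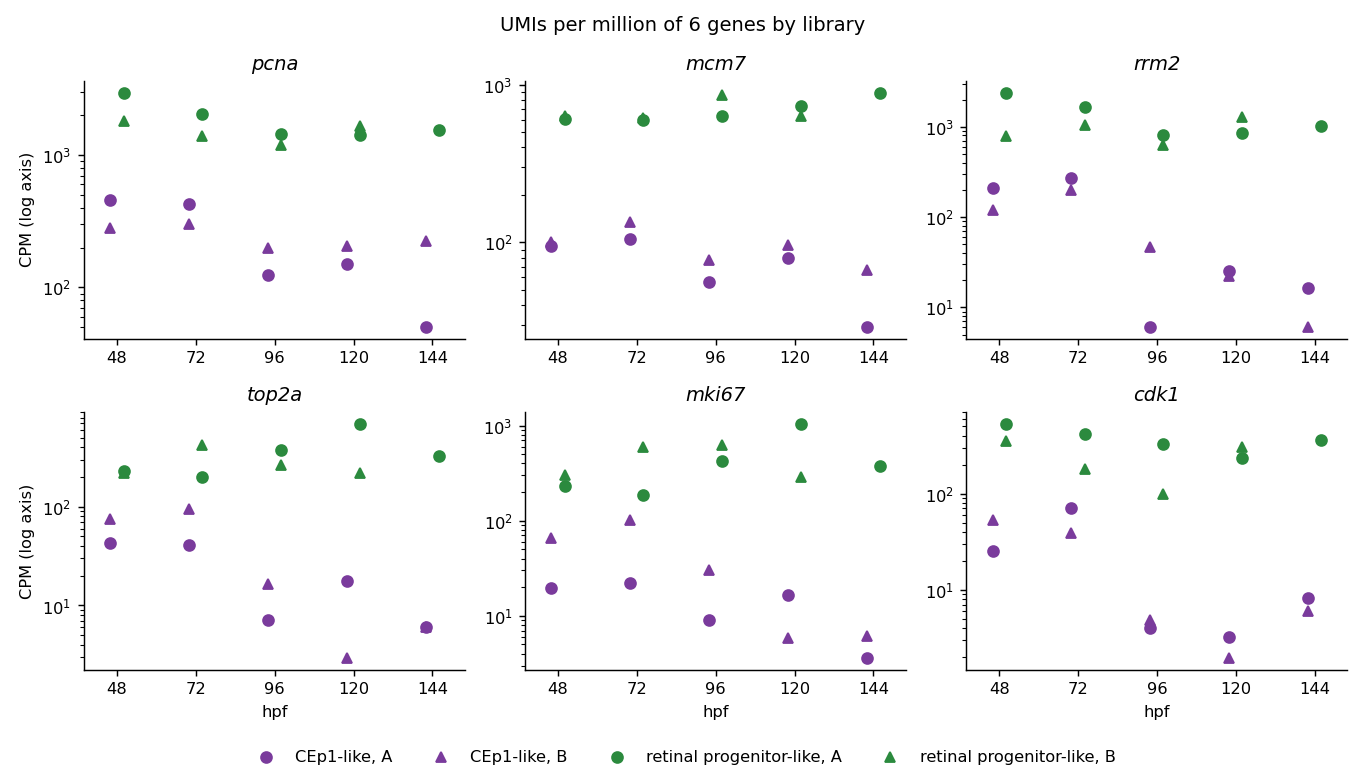
CPM of pcna, mcm7, rrm2, top2a, mki67 and cdk1 in each library by time in hpf, in CEp1-like and retinal progenitor-like cells, on a log axis. In CEp1-like cells rrm2 and cdk1 lie apart between 48 to 72 hpf (119 to 273 and 25.1 to 70.7 CPM) and later (6.07 to 46.9 and 1.95 to 8.26 CPM), and mcm7 does not.

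Every library of 48 and 72 hpf was above every later library for 17 of 20 mitosis genes and 9 of 20 replication genes in CEp1-like cells, as for 14.1% of all genes tested there. In retinal progenitor-like cells the same held for 4 of 20 mitosis and 0 of 20 replication genes and for 2.66% of all genes tested. In CEp2-like cells it held for 8 of 20 mitosis and 12 of 20 replication genes, and for 4.69% of the genes tested in the comparison with CEp1-like cells. In sums, CEp1-like cells had 1326 to 1763 CPM of replication and 578 to 770 CPM of mitosis genes at 48 and 72 hpf, and 229 to 1036 CPM and 60.9 to 172 CPM from 96 hpf on. The ratio of replication to mitosis UMIs was 1.74 to 3.00 early and 2.48 to 15.3 later. The share of CEp1-like cells with UMIs of both sets, after thinning, was 8.11, 8.11, 11.1 and 9.91% at 48 and 72 hpf and 2.86, 2.69, 1.16, 0.840 and 0.613% in the libraries from 96 hpf A to 144 hpf A. These later shares lie near the 1.48% of retinal neuron-like cells, and at 120 and 144 hpf they rest on 1 to 4 cells per library.

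The count of mitosis genes called in CEp1-like cells stayed between 13 and 17 when each library was left out in turn. That of replication genes was 4 without 48 hpf A, between 6 and 9 without each of the 8 libraries other than 48 hpf A and 120 hpf B, and 12 without 120 hpf B, and it was 4 without both V2 libraries. Within CEp1-like cells the summed CEp2 markers also differed with time, at 45493 to 108369 CPM in the 48 and 72 hpf libraries and 18320 to 29757 CPM later, for 15 of 15 markers detected. CEn markers, 5 of 5 detected, had 405 to 890 CPM early and 85.3 to 189 CPM later, and periocular mesenchyme markers, 14 of 15 detected, 119 to 222 CPM early and 12.2 to 114 CPM later. The part of these lists in the result was not tested. Summed retinal progenitor markers in these cells were 505 to 1597 CPM early and 550 to 2517 CPM later.

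Whether the slopes differ between CEp1-like and retinal progenitor-like cells was tested as an interaction, a test that was added after the data had been seen (9 libraries, 7431 genes). Slopes were lower in CEp1-like cells for 8 of 20 mitosis genes and 0 of 20 replication genes, while 0.955% of all genes were called lower and 1.37% higher. At an unadjusted p under 0.05 there were 19 mitosis and 9 replication genes, and DESeq2 called 12 and 6. The largest difference was that of ccnb1, -1.24 ± 0.27 (edgeR, adjusted p = 0.025), followed by cdc20, -1.15 ± 0.27 (adjusted p = 0.039), and tpx2, a spindle assembly factor, -1.14 ± 0.23 (adjusted p = 0.020). The checkpoint kinase ttk, top2a, mki67, plk1 and aurkb completed the 8. The median difference was -0.87 over the mitosis and -0.40 over the replication genes, with the MCM subunits between -0.39 and -0.21 and slbp alone above 0 among the replication genes, at 0.63. The mitosis count depended on single libraries: it was 0 without 48 hpf B, 2 without 144 hpf A, 4 without 72 hpf A, 120 hpf A or 120 hpf B, 13 without 96 hpf B and 14 without 48 hpf A, and the replication count was at most 5.

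**Figure D5:**
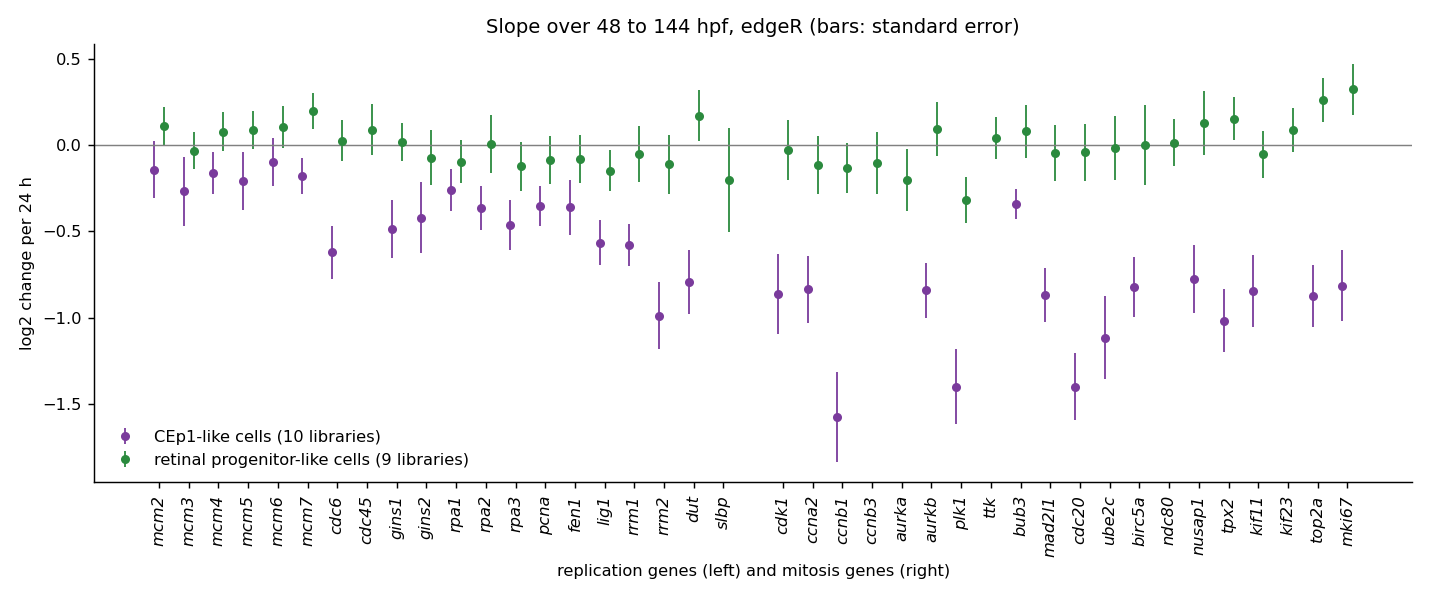
Slope of each member over time, as log2 change per 24 h with its standard error, in CEp1-like and in retinal progenitor-like cells, grouped by role. In CEp1-like cells the mitosis genes tested lie between -1.58 and -0.34 and the MCM subunits between -0.27 and -0.10, and in retinal progenitor-like cells the members lie between -0.32 and 0.32.

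The last view over time took each library whole. Summed over all cells of a library, replication genes had 6413, 4138, 4081, 2648, 1961, 1631, 2127, 4621, 3138 and 249 CPM in the libraries ordered by time, and mitosis genes 2331, 2035, 2050, 1401, 868, 577, 891, 1993, 1401 and 38 CPM. Libraries 96 hpf B and 144 hpf B were low and 48 hpf A and 120 hpf B high, and 0 of 40 members had a slope that passed edgeR's test (8896 genes, 1.05% called). An unadjusted p under 0.05 was found for 1 replication and 1 mitosis gene, and DESeq2 called 0. Median slopes were -0.20 and -0.26, and -0.10 and -0.16 without 144 hpf B. Retinal progenitor-like cells made up 2 of 102 cells in 144 hpf B, 148 of 1452 in 96 hpf B and 948 of 2759 in 120 hpf B, and the part of this mix in the sums was not tested.

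CEp1-like and CEp2-like cells, the layers of the epithelium, were compared within each of the 10 libraries. Of 19 replication genes tested, 5 were called higher in CEp1-like cells, where 18.5% of all 6753 genes were, and of 19 mitosis genes 3 were called lower, where 19.9% of all genes were (edgeR). These shares lie near those of all genes. The 5 were rpa2 (log2 fold change 0.95 ± 0.24), pcna (0.76 ± 0.25), mcm2 (0.74 ± 0.22), fen1 (0.59 ± 0.18) and mcm4 (0.55 ± 0.20). Library totals in place of TMM factors moved the median of all genes to -0.67. With them 0 were called higher, and fen1 and mcm4 changed sign. Mean CPM over the 10 libraries was lower in CEp1-like than in CEp2-like cells for pcna (242 against 297), mcm2 (64.8 against 68.8), fen1 (43.6 against 48.3) and mcm4 (55.2 against 65.8). For rpa2 it was higher (58.2 against 56.4). The 3 lower ones were ndc80, which binds microtubules at the kinetochore (-1.63 ± 0.41, adjusted p = 0.0060), cdk1 (-1.46 ± 0.42) and mki67 (-0.99 ± 0.33), and with library totals 16 mitosis genes were called lower.

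Cdk1 averaged 21.6 ± 24.5 CPM in CEp1-like cells and 82.7 ± 73.3 CPM in CEp2-like cells (SD, n = 10 libraries each), and was higher in CEp1-like cells in 2 of 10 libraries. The group ranges overlapped for each of the 40 members. By library, CEp1-like cells had 0.459 to 0.853 times the replication CPM of CEp2-like cells at 48 to 96 hpf, 1.01 and 1.05 times at 120 hpf, 1.77 times in 144 hpf A and 7.47 times in 144 hpf B. For the mitosis sum the ratio was 0.105 to 0.666 up to 120 hpf and 7.30 and 2.51 at 144 hpf, where CEp2-like cells had 12.7 and 24.2 CPM. Thus CEp2-like cells had the higher mitosis sums in the 8 libraries up to 120 hpf and the lower ones in both libraries of 144 hpf. The value of 144 hpf B rests on 21 CEp1-like cells with 164078 UMIs in all. Most barcodes of that library were also found in 48 hpf B. The replication count was 9 without 48 hpf A, 1 without 96 hpf B or 120 hpf B, 3 without 120 hpf A or 144 hpf A and 4 without 144 hpf B.

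AL2-like cells were set against mesenchymal-like cells. The AL2-like class was found from 96 hpf on, and 5 libraries (96 hpf A to 144 hpf A) held enough cells of both classes. In AL2-like cells 15 of 18 replication genes and 12 of 17 mitosis genes tested were called higher and 0 lower, where 18.7% of all 6118 genes were called higher and 18.1% lower (edgeR). The 2 replication genes cdc45 and slbp and the 3 mitosis genes aurka, ccnb3 and ndc80 did not pass the filter on low counts. The median log2 fold change was 0.94 over replication and 1.20 over mitosis genes, beside 0.03 over all genes. With library totals, where the median of all genes was -0.26, 14 and 8 were called higher. At 96 hpf an unnamed cluster of 179 cells, with 4 of 5 corneal endothelium markers, was not in the mesenchymal-like class. After thinning, 3.70 and 12.8% of its cells in 96 hpf A and B held both sets, beside 0 and 1.66% of mesenchymal-like cells. Its part in the comparison was not tested.

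Dut differed most, with 152, 222, 104, 294 and 23.9 CPM in AL2-like cells and 27.7, 69.6, 23.0, 88.5 and 0 CPM in mesenchymal-like cells of 96 hpf A, 96 hpf B, 120 hpf A, 120 hpf B and 144 hpf A. Its log2 fold change was 2.18 ± 0.26 (adjusted p = 3.3e-06), and it was higher in AL2-like cells in 5 of 5 libraries. Mad2l1, a checkpoint protein that holds back anaphase, followed with 1.96 ± 0.38 and cdc20 with 1.86 ± 0.49. Top2a had 124, 218, 99.3, 89.4 and 3.88 CPM in AL2-like cells, against 0, 87.7, 31.4, 55.9 and 0 CPM in mesenchymal-like cells (log2 fold change 1.65 ± 0.33). Smallest were the differences of gins1 (0.40 ± 0.32), ccnb1 (0.57 ± 0.40) and mcm2 (0.63 ± 0.22), of which mcm2 alone was called. Library ranges of the groups overlapped for each of the 40 members, and both groups had their lowest sums in 144 hpf A.

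Within libraries the replication sum was 1.55 to 2.68 times and the mitosis sum 1.43 to 20.9 times as high in AL2-like as in mesenchymal-like cells. The highest ratio was that of 96 hpf A, where mesenchymal-like cells had 22.1 CPM of mitosis genes, 4 UMIs in all, beside 1528 CPM of replication genes. Without 96 hpf B 7 mitosis genes were called, and when cells were grouped by the markers they carried 8 replication and 7 mitosis genes were. AL2-like cells with UMIs of both sets after thinning made up 14.1, 8.33, 6.82, 5.95 and 0.645% in the libraries ordered by time (exact 95% intervals 6.97 to 24.4% in 96 hpf A and 0.0782 to 2.31% in 144 hpf A). Mesenchymal-like cells had 4653 and 2650 CPM of replication genes at 48 hpf and 121 CPM in 144 hpf A. Their mitosis sum was 2296 and 2297 CPM at 48 hpf and 14.6 CPM in 144 hpf A. These values come from different clusters, of periocular mesenchyme markers at 48 hpf and of corneal endothelium markers in 144 hpf A. In AL2-like cells summed retinal progenitor markers were 1438 to 7308 CPM, in mesenchymal-like cells of 96 to 144 hpf 676 to 1806 CPM. Their part in the difference was not tested.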

How the data were processed

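Droplet 3′ libraries (10x Genomics) of sorted cells were used, 2 at each of 5 time points. The deposited UMI counts are whole numbers per transcript and cell, which the authors made with Cell Ranger 6.0 on GRCz11 with RefSeq transcripts, without normalization. The joined matrix of all time points, in which the authors equalised mapped reads, was not used. The label protocol names v2 chemistry and the study's methods V3, while the table of cells gives V2 for 2 libraries and V3 for 8.

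Features of 1 symbol were summed (16283 features, 15413 symbols), and all 12234 cells were kept. The members and lists were chosen with earlier results of these data known. Genes named in the text are the listed members by role, and for the wider cell cycle lists the called genes with the smallest p. Cells were clustered per time point with the listed cell cycle genes held out. Settings were scanpy 1.11.5, leidenalg 0.10.2, genes in at least 10 cells, 100 principal components, 20 neighbours and resolution 1. A cluster was named where at least 3 markers of a list were 4-fold higher than in other cells (10 CPM added to both) and in at least 10% of its cells, and they made up at least 1 in 3 of the list or numbered at least 5. That last number was set after seeing the data. Unnamed clusters held 1065 cells, and only some of them failed this rule, among them that with photoreceptor markers at 120 hpf. The unnamed clusters described above, with CEp1, corneal endothelium or retinal progenitor markers, met it. They stayed unnamed under a further rule, since their leading genes were those of another list. Of 13 retinal progenitor-like clusters, 5, at 120 and 144 hpf, had 1 to 5 members among their 10 leading genes although held out. No cluster of another named class did. Cell type names rebuilt here may differ from the study's. Doublet scores marked 38 cells (0.311%) at the automatic threshold, too few to rely on, so 175 cells (1.43%) at an expected rate were removed as an alternative only.

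UMIs were summed per library and cell group (at least 20 cells) and tested in R 4.3.3 with edgeR 4.0.16 (TMM factors, filterByExpr, quasi-likelihood F test, Benjamini-Hochberg adjustment over all genes tested, threshold 0.05). Group comparisons had the library as a block, and trends a straight line in hpf. The script was tested on simulated counts. Alternatives were DESeq2 1.42.0, library totals, no filter, other resolutions, cells grouped by markers without clusters, cell cycle genes kept in the clustering, and left-out libraries or cells. Cell shares were thinned to 500 UMIs, with 400 as the alternative, and their intervals are exact (Clopper-Pearson). The trend in AL2-like cells, with 5 libraries over 3 time points, was not fitted.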

Additional observations from a re-analysis of the deposited data

Results flagged for a closer look

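The slopes of 8 mitosis genes differed between CEp1-like and retinal progenitor-like cells by the interaction test described above, and each was lower in CEp1-like cells (log2 per 24 h, CEp1-like minus retinal progenitor-like). The differences were -1.24 for ccnb1, -1.15 for cdc20, -1.14 for tpx2, -1.13 for ttk, -1.12 for top2a, -1.07 for mki67, -0.99 for plk1 and -0.84 for aurkb. Of all genes tested, 0.955% were called lower and 1.37% higher. The test was added after the data had been seen, and the count of 8 ranged from 0 to 14 with single libraries left out.

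One value stood far from its group. The log2 ratio of summed replication genes in CEp1-like over CEp2-like cells was 2.90 in 144 hpf B, the library with 102 cells of which 61 share a barcode with 48 hpf B, and its 21 CEp1-like cells carry the ratio. Among 6 groups of values screened this was the only one, and chance marks about 1 in 20 groups.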

How the results depend on the processing

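When each library was left out in turn, members called lower with time in CEp1-like cells numbered 4 to 12 replication and 13 to 17 mitosis genes, and members with a lower slope than in retinal progenitor-like cells 0 to 5 and 0 to 14. Members higher in retinal progenitor-like than neuron-like cells numbered 19 to 20 and 20 to 20. For AL2-like cells the counts were 13 to 16 and 7 to 12, for CEp1-like against CEp2-like cells 1 to 9 higher and 2 to 4 lower, and 0 in the trends of all cells and of retinal progenitor-like cells.

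In CEp1-like cells, 4 replication genes were called without the V2 libraries, and 0 and 0 members with the shared code as a block. That block leaves the slope to the pairs of libraries with a shared code, too few to decide. For CEp1-like against CEp2-like cells, replication genes called higher numbered 0 with library totals, 10 without V2, 0 at resolution 0.5, 8 at resolution 2, 13 with cells grouped by markers, 0 with cell cycle genes in the clustering and 2 without cells of shared barcodes. Mitosis genes called lower numbered 16 with library totals, 0 at resolution 0.5 and 0 with cells grouped by markers. Fen1 (-0.0443) and mcm4 (-0.0902) turned negative with library totals. For AL2-like cells 9 replication genes were called at resolution 0.5, and 8 replication and 7 mitosis genes with cells grouped by markers. For the difference of slopes, replication genes called numbered 6 with DESeq2, 2 with library totals, 6 without a filter, 2 at resolution 2 and 5 with cells grouped by markers, and mitosis genes 17 without a filter, 1 at resolution 0.5 and 15 with cells grouped by markers. Causes were not tested.

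The median mitosis sum of retinal neuron-like libraries, 334.7 CPM as reported, moved to 1206 CPM at resolution 0.5 and 1352 CPM with cells grouped by markers. The share of cells with both sets was 43.4% at 400 UMIs and 77.5% unthinned in retinal progenitor-like cells, 9.94% unthinned in retinal neuron-like cells, 2.53 and 30.7% in CEp1-like, 5.51 and 29.4% in CEp2-like, 4.36 and 17.7% in AL2-like and 5.39 and 19.0% in mesenchymal-like cells. The AL2-like and mesenchymal-like pools cover different time points.

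The letters A and B did not pair libraries in the same way over all time points (r of deviations -0.59 to 0.59, over 0.1 in 4 of 10 pairs). The highest r, 0.59, was between 48 and 72 hpf, where both A libraries carry chemistry V2. With the letter as a replicate block, 9 replication and 17 mitosis genes were called in CEp1-like cells, and 0 in the other trends. Over the alternatives, called members lost significance in 74 cases in the CEp1-like trend, 44 for AL2-like cells, 44 for CEp1-like against CEp2-like cells, 43 for the difference of slopes and 2 for retinal progenitor-like cells. The trend in AL2-like cells and the promoter motifs were not run. The shares of CEp1-like cells with both sets rest on 2 cells in 96 hpf A and on 1 to 4 cells per library at 120 and 144 hpf.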

Other observations

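Wider lists of cell cycle genes were also counted, with the same edgeR test and Benjamini-Hochberg adjustment. In CEp1-like cells 15 of 19 other mitosis genes tested were called lower with time, where 15.1% of all genes were. Among them were spc25 of the kinetochore (log2 change per 24 h -0.95) and lmnb1, lamin B1 (-0.67). Of 44 other replication genes 8 were called lower, a share near that of all genes. One of these was esco2, which acetylates cohesin (-1.04, adjusted p = 8.0e-04). Hmgb2a, a chromatin protein of dividing cells, had 1017 to 2644 CPM in the 48 and 72 hpf libraries and 213 to 441 CPM later in these cells. Of 25 regulators of entry and exit, 5 were called higher and 5 lower, where 11.4% of all genes were called higher and 15.1% lower. Their median slope was -0.05, so the gene named next does not stand for the list. Cdkn1a, the p21 inhibitor of cyclin-dependent kinases, rose by 1.0 on the log2 scale per 24 h (adjusted p = 3.8e-04), with 17.9, 23.5, 39.7, 39.5, 52.6, 129, 151, 307, 188 and 195 CPM in the CEp1-like libraries ordered by time. In retinal progenitor-like cells its slope was 0.82 (adjusted p = 0.42) and it was not called, and over all sorted cells it was the only one of 40 regulators called (0.88, adjusted p = 0.014).

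In retinal progenitor-like against retinal neuron-like cells, 55 of 55 other replication genes, 57 of 58 other mitosis genes and 26 of 37 regulators were called higher and 6 regulators lower, where 27.4% of all genes were called higher and 22.6% lower, with log2 fold changes of 4.0 for the cyclin ccnd1, 6.49 for the repressor e2f8 and 5.18 for the condensin smc2. In AL2-like against mesenchymal-like cells 26 of 47 other replication genes and 13 of 32 other mitosis genes were called higher, where 18.7% of all genes were. Of 29 regulators tested there, 8 were called higher and 5 lower, where 18.1% of all genes were called lower. Myca, a Myc transcription factor of that list, had 140, 137, 132, 103 and 121 CPM in AL2-like cells of the 5 libraries. In mesenchymal-like cells it had 33.2, 20.6, 46.0, 50.3 and 34.0 CPM, with a log2 fold change of 2.02 (edgeR, adjusted p = 5.0e-06).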
